A study of Mus musculus with 6 samples.

Results

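The genes that encode the proteasome were taken from the table of fragment counts as all protein-coding genes whose GRCm38 symbol starts with Psma, Psmb, Psmc, Psmd, Psme, Psmf or Psmg followed by a digit. This gave 50 of the 54838 genes in the table, and each of the 50 was among the 19087 genes kept for testing after genes of low count were removed. RNA came from the hippocampi of 3 wild-type females and 3 FVB/NJ-Tg(Orai1)Ibd transgenic females aged 7 months, and each library held the polyA RNA of 1 hippocampus. The transgene is a human ORAI1 coding sequence, for the pore protein of store-operated calcium entry, placed in a modified mouse Thy-1.2 cassette that drives expression in neurons and injected into pronuclei. No other allele or agent is named in the labels for either genotype, and the question asked of these genes is whether their RNA differed between the genotypes.

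The proteasome is the large protease that degrades proteins marked with ubiquitin. Its barrel-shaped core is built of rings of alpha subunits, which gate the entry, around rings of beta subunits, of which Psmb5, Psmb6 and Psmb7 carry the active sites. A regulatory particle caps the core, with a base of ATPases that unfold the substrate and a lid that holds the enzyme removing the ubiquitin chain. In cells exposed to interferon-gamma the active subunits are exchanged for Psmb8, Psmb9 and Psmb10, which gives the immunoproteasome, known for making peptides for MHC class I. In neurons the proteasome turns over synaptic proteins, while the immunoproteasome subunits are low in healthy brain and are made largely by microglia when the tissue is inflamed. The genes of the constitutive subunits are controlled together by the transcription factor Nfe2l1, which binds antioxidant response elements in their promoters.

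Promoter sequences were available in the RefSeq table of GRCm38.p6 for 42 of the 50 genes, in 45 windows that run from 250 bases before to 50 bases after a RefSeq start. The core of the antioxidant response element was searched as TGACNNNGC on both strands and lay in 6 of the 45 windows (13.3%), beside 12.4% of 32851 windows of all genes. The interferon-gamma activated site, searched as TTCNNNGAA, lay in 3 of the 45 windows (6.67%) and in 8.30% of all windows. The interferon response motif GAAANNGAA lay in 7 of the 45 windows (15.6%) and in 8.56% of all windows, and the CCAAT box, searched as CCAAT on both strands, in 15 of them (33.3%) and in 37.4% of all. Matches of TTCNNNGAA and GAAANNGAA may overlap each other. None of these matches is evidence of binding. The stretches below are shown for the catalytic subunits Psmb5, Psmb6, Psmb8 and Psmb9 and for Psmd4 and Psmd9, whose differences between the genotypes are described later. No window was available for the catalytic subunit Psmb7, and that of Psmb10 held no match of these motifs. The stretches are written 5′ to 3′ on the strand of the gene, and only the motif named for each gene is in capitals.

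The TGACNNNGC match of Psmb5 started 47 bases before the RefSeq start (chr14:54617946-54618095, minus strand).
Psmb5: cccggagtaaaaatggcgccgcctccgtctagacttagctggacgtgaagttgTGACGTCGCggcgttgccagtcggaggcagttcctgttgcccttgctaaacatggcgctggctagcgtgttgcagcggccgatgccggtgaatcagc
In Psmb6 the same motif started 9 bases before the start (chr11:70525257-70525406, plus strand).
Psmb6: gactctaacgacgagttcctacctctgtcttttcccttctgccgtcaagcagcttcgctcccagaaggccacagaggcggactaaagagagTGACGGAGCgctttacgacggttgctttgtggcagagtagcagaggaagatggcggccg
In Psmd9, an assembly chaperone, it started 31 bases before the start (chr5:123228090-123228239, plus strand).
Psmd9: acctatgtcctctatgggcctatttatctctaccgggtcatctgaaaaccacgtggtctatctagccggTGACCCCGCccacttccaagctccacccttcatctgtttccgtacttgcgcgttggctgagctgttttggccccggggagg
The capitals in Psmb8 mark the TTCNNNGAA match, which started 97 bases before the start (chr17:34198075-34198244, plus strand).
Psmb8: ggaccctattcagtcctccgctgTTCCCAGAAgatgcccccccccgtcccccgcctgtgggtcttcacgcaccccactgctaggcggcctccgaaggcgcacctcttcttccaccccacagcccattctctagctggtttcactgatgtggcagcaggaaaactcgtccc
Psmb9 held none of the TGACNNNGC, TTCNNNGAA and GAAANNGAA motifs in its window (chr17:34187281-34187580, minus strand). It faces Tap1, a subunit of the MHC class I peptide transporter, with 225 bases between their RefSeq starts, so this window is shared by both genes. The capitals mark its CCAAT box, read on the opposite strand.
Psmb9: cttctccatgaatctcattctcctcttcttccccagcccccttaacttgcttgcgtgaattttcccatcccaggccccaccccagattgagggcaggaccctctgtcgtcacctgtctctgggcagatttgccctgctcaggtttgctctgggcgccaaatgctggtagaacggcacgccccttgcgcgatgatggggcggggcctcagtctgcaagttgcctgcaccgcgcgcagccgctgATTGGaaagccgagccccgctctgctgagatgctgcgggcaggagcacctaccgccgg
In Psmd4, the ubiquitin receptor of the base, the capitals mark a GAAANNGAA match, read on the opposite strand, 79 bases before the start (chr3:95042565-95042714, minus strand). Its CCAAT boxes, on both strands, also lie in this stretch and are left in lower case.
Psmd4: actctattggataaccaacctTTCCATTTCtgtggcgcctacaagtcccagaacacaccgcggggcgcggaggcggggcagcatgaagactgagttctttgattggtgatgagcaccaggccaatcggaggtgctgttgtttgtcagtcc

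The libraries held 37414241 to 52497799 fragments counted on genes. Orai1 checked the labels, with 7.16 to 8.08 CPM (counts scaled to the size of the library) in the wild-type and 313 to 331 CPM in the transgenic mice (log2 fold change 5.42 ± 0.07 SE, adjusted p = 3.84e-08, edgeR). Thy1 was also higher (2.66 ± 0.09 SE, adjusted p = 5.03e-05). Markers of choroid plexus stood apart between the genotypes: 16 of 16 were lower in the transgenic mice, and their summed level was 3933 to 6083 CPM in the wild-type and 559 to 873 CPM in the transgenic libraries. For hippocampal excitatory neurons 1 of 8 markers was called, Slc17a7, which was higher, and the list summed to 5804 to 6017 CPM and 5958 to 6724 CPM. For endothelium 1 of 8 markers was called, Cldn5, also higher, and the list summed to 206 to 228 CPM and 197 to 273 CPM. With GC offsets neither call held (adjusted p = 0.122 for Slc17a7 and 0.124 for Cldn5). The log2 fold change went from 0.26 to 0.15 for Slc17a7 and from 0.66 to 0.52 for Cldn5. No marker was called for microglia, astrocytes or oligodendrocytes, and in these lists the summed levels of the genotypes overlapped. No marker of the 6 lists was at 0 in any library. The part of the choroid plexus difference in the values below was not tested. In RNA from whole tissue, fewer cells of a type and less RNA per cell cannot be told apart.

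Most proteasome genes had slightly higher values in the transgenic hippocampi, and no gene among them passed the test. In edgeR's quasi-likelihood test, with p-values adjusted by Benjamini-Hochberg over all genes tested, 0 of the 50 had an adjusted p under 0.05, while 7.10% of all genes tested did. The log2 fold change was above 0 in 43 of the 50 genes (86.0%) and in 48.3% of all genes tested. The median log2 fold change was 0.10 over the 50 genes and -0.01 over all genes tested. With gene length offsets in the model these medians were 0.06 and -0.02, and 32 of the 50 were above 0. An unadjusted p under 0.05 was reached by 18 genes with higher values in the transgenic mice (36.0%), beside 13.0% of all genes tested, and by 2 genes with lower values (4.0%), beside 14.8% of all genes tested. It was reached with higher values by 5 of the 50 when the model had gene length offsets, beside 11.7% of all genes tested. With both GC and gene length offsets it was reached by 6, beside 9.40% of all genes tested. With GC offsets alone 16 reached it, and the share of all genes was not computed for that fit. There 424 genes in all had an adjusted p under 0.05, in place of 1355. In 21 genes (42.0%) each transgenic mouse lay above each wild-type mouse, which held for 16.9% of all genes tested. The reverse held for 1 gene (2.0%), Psmc6, and for 17.9% of all genes tested.

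Other tests called few of them. DESeq2's Wald test called 2 genes, Psmd4 (adjusted p = 0.0190) and Psmc5 (adjusted p = 0.0350), and 11.7% of all genes tested. In simulated data with 200 genes changed by 0.5 on the log2 scale, 27.2% of the calls of DESeq2's Wald test were false. It found 53.5% of the changed genes. Of the calls of edgeR 10.5% were false, and it found 38.5% of the changed genes. No GC trend was added there. With 200 genes changed by 1.0, 7.33% of the calls of edgeR were false without a GC trend and 57.0% with one added. With the trend and GC offsets in the model, 8.64% were false. limma-voom called 0 of the 50 and 6.61% of all genes tested. When the first transgenic mouse was left out, edgeR called Psme2 (adjusted p = 0.0491) and 5.93% of all genes tested. Leaving out the first wild-type mouse lowered the number of genes with an unadjusted p under 0.05 and higher values from 18 to 10. The share of all genes was not computed for that fit, in which 77 genes in all had an adjusted p under 0.05, in place of 1355.

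**Figure D1:**
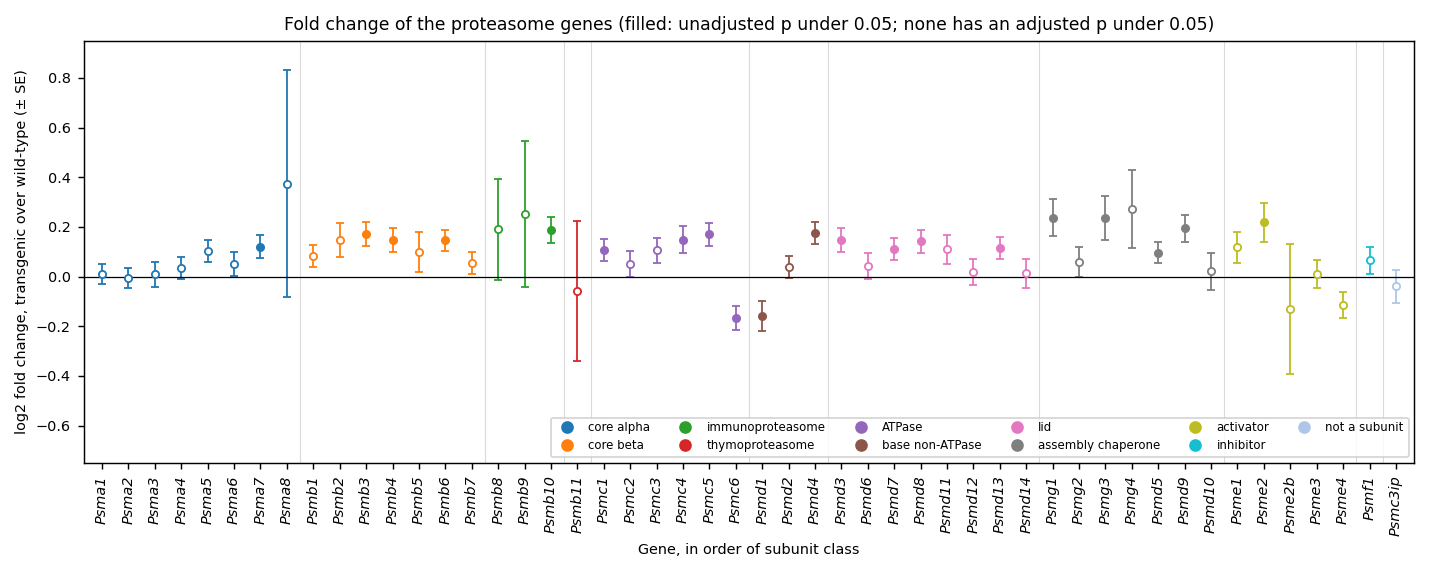
Log2 fold change of each of the 50 genes, transgenic over wild-type, with the standard error of edgeR's fit as bars and the subunit classes in colour. Most points lie a little above 0, with Psmc6 and Psmd1 the lowest, and the widest bars belong to Psma8, Psmb9, Psmb11 and Psme2b, which had the fewest counts.

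The size of the difference varied between mice as well as between genotypes. The first transgenic mouse held the highest value of the 6 mice in 32 of the 50 genes, and the third wild-type mouse held the lowest in 26. For the 31 constitutive subunits of the assembled core and regulatory particle, the summed level was 2505, 2544 and 2454 CPM in the wild-type mice and 2733, 2583 and 2574 CPM in the transgenic mice. The lowest transgenic sum thus lay close above the highest wild-type sum, and the first transgenic mouse lay well above the other two. The means were 2501 ± 45.0 CPM and 2630 ± 89.0 CPM (SD, n = 3 each), 5.15% higher in the transgenic mice. With the first transgenic mouse left out, the median over the 50 genes was 0.08 and 40 of them had a log2 fold change above 0. With the third wild-type mouse left out the median was 0.10, again with 40 above 0. Within a genotype the levels of these 31 genes varied little, with a median coefficient of variation of 2.55% over the wild-type and 4.16% over the transgenic mice.

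**Figure D2:**
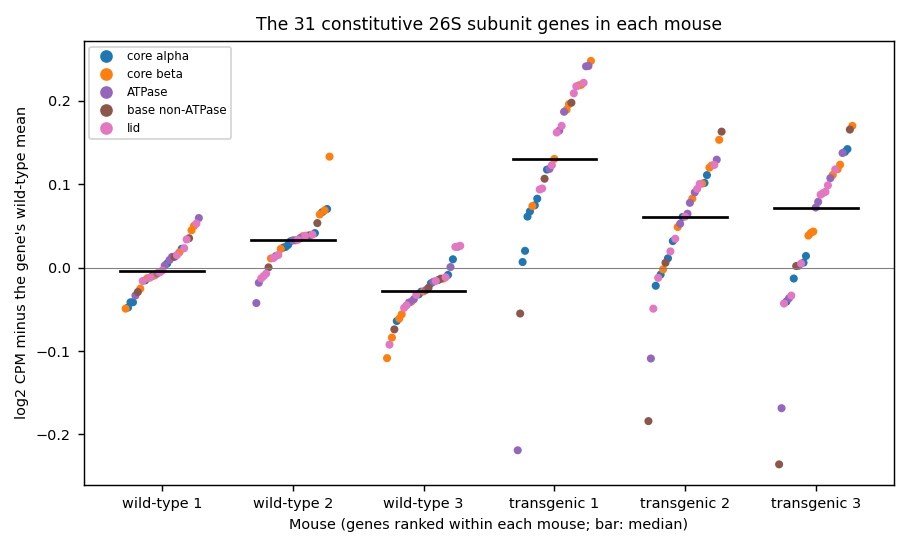
Log2 CPM of the 31 constitutive subunit genes in each mouse, minus the mean of the wild-type mice for the same gene, with genes ranked within a mouse and a bar at the median. The medians are 0.13, 0.06 and 0.07 in the transgenic mice and between -0.03 and 0.03 in the wild-type mice, and Psmc6 lies far below the rest in the first transgenic mouse, as both Psmc6 and Psmd1 do in the other 2.

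Among the alpha subunits of the core, 7 of 8 genes had a log2 fold change above 0, with a median of 0.04. With gene length offsets 3 of 8 were above 0, with a median of -0.01, and with GC offsets 8 of 8, with a median of 0.10. Of the 8, 1 gene, Psma7, had an unadjusted p under 0.05 with higher values (12.5%), close to the 13.0% of all genes tested. The summed level of the 8 genes was 480, 500 and 478 CPM in the wild-type and 507, 499 and 496 CPM in the transgenic mice, so that the groups overlapped. Psma7 had 71.5, 77.3 and 72.1 CPM in the wild-type and 79.8, 78.9 and 81.2 CPM in the transgenic mice, with no overlap (adjusted p = 0.145). It has the highest GC content of the 50 genes at 57.4%, and with GC offsets its log2 fold change went from 0.12 to 0.008 (adjusted p = 0.941). In Psma5 the transgenic mice also lay above the wild-type mice, at 49.1, 50.8 and 51.8 CPM against 46.5, 47.8 and 46.7 CPM (adjusted p = 0.181). Psma1, Psma2, Psma3, Psma4 and Psma6 overlapped between the genotypes, with log2 fold changes of -0.005 to 0.05. Psma8, a testis form of an alpha subunit, was at 5 to 12 counts per library, and its log2 fold change of 0.37 ± 0.46 (SE) rests on those counts.

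Levels of different genes were compared as FPKM, the CPM per kilobase of deposited gene length, that length being the union of all exons. In the wild-type mice Psma6 was the highest alpha subunit at 52.4 ± 2.18 FPKM (SD, n = 3), followed by Psma5 at 35.6 ± 0.52 FPKM and Psma4 at 32.2 ± 0.84 FPKM. Psma7 had 24.0 ± 1.03 FPKM, Psma1 22.7 ± 0.34 FPKM and Psma3 21.8 ± 0.84 FPKM. Psma2 came next at 19.7 ± 0.41 FPKM and Psma8 last at 0.076 ± 0.044 FPKM. No neighbours in this order overlapped in their ranges over the wild-type mice. With the length of the longest coding transcript in place of the deposited length, Psma4 was the highest at 65.5 FPKM, before Psma7 at 63.6 FPKM and Psma6 at 62.01 FPKM. The order of levels between genes therefore holds for the deposited lengths only.

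The 7 constitutive beta subunits had log2 fold changes of 0.05 to 0.17, with a median of 0.15, and none passed the test. With gene length offsets they ranged from -0.005 to 0.12. Of the 7 genes, 3 had an unadjusted p under 0.05 (42.9%, against 13.0% of all genes tested) and 4 did not overlap between the genotypes (57.1%, against 16.9%). Psmb3, a structural subunit (chr11:97703399-97713500 in GRCm38, from start to end of the gene), had 45.1, 47.7 and 43.8 CPM in the wild-type and 52.1, 50.6 and 51.2 CPM in the transgenic mice. Each transgenic value lay above each wild-type value, the log2 fold change was 0.17 ± 0.05 (SE), or 12.7%, and the adjusted p was 0.0742. Psmb4, also structural, was at 84.9, 87.7 and 83.8 CPM and at 99.4, 91.7 and 92.8 CPM (adjusted p = 0.0994), and its log2 fold change went from 0.15 to 0.09 with GC offsets. Psmb1 did not overlap either, at 89.6, 89.8 and 86.0 CPM and at 96.8, 93.6 and 90.8 CPM (adjusted p = 0.261). In Psmb2 the second wild-type mouse, at 50.6 CPM, lay among the transgenic mice at 49.8 to 53.7 CPM.

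Among the catalytic beta subunits, Psmb6, with caspase-like activity (chr11:70525367-70527858), separated the genotypes. It had 61.2, 64.0 and 61.7 CPM in the wild-type and 71.0, 67.8 and 67.8 CPM in the transgenic mice, a log2 fold change of 0.15 ± 0.04 (SE) with an adjusted p of 0.0842, and 0.08 (adjusted p = 0.327) when gene length offsets were used. Psmb5, with chymotrypsin-like activity (chr14:54614119-54618022), had 46.9, 47.5 and 42.2 CPM and 54.0, 45.4 and 46.9 CPM. These ranges overlapped, and the log2 fold change of 0.10 ± 0.08 (SE) had an adjusted p of 0.466. It was 0.02 without the first transgenic mouse, and fell just below 0 with GC offsets (-0.00791) and with gene length offsets (-0.00515). Psmb7, with trypsin-like activity (chr2:38588036-38644087), had 85.9, 83.7 and 79.6 CPM in the wild-type mice. In the transgenic mice it had 87.4, 85.9 and 85.4 CPM, which overlapped, with a log2 fold change of 0.05 ± 0.04 (SE) and an adjusted p of 0.478. The first transgenic mouse held the highest value in 7 of the 7 beta genes, and the third wild-type mouse the lowest in 6. Per deposited length Psmb5 was the highest in the wild-type mice at 50.7 ± 3.26 FPKM, before Psmb4 at 43.8 ± 1.04 FPKM and Psmb2 at 38.4 ± 3.16 FPKM. Psmb6 followed at 33.3 ± 0.79 FPKM and Psmb7 at 24.3 ± 0.94 FPKM. Psmb3 at 19.8 ± 0.87 FPKM and Psmb1 at 19.3 ± 0.47 FPKM overlapped in their ranges. Although the core holds its 14 constitutive subunits in equal number, the highest of their genes lay 2.72-fold above the lowest per deposited length in the wild-type mice. With the longest coding transcript this was 3.14-fold.

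**Figure D3:**
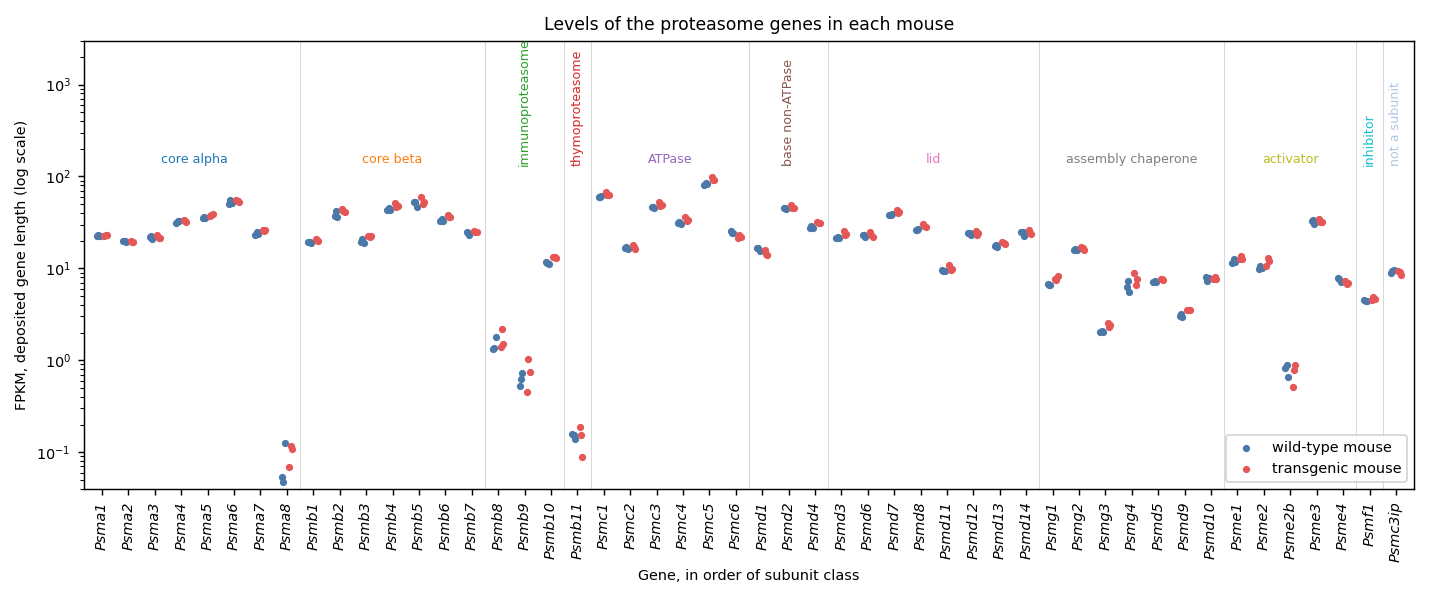
FPKM of each of the 50 genes in each of the 6 mice on a log axis, wild-type in blue and transgenic in red, in order of subunit class. Constitutive subunits lie between about 9 and 100 FPKM, Psmb8 and Psmb9 near 1, and Psma8 and Psmb11 near 0.1, while the points of the 2 genotypes lie close together in most genes.

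Of the 3 immunoproteasome genes, Psmb8 and Psmb9 were low and varied more between mice than between genotypes. In the wild-type mice Psmb10 was at 11.5 ± 0.23 FPKM, Psmb8 at 1.49 ± 0.25 FPKM and Psmb9 at 0.62 ± 0.10 FPKM. Psmb8, the inducible counterpart of Psmb5 (chr17:34197721-34201454), had 3.63, 3.74 and 4.89 CPM in the wild-type and 3.84, 6.002 and 4.14 CPM in the transgenic mice. The genotypes overlapped, and the highest values were those of the second transgenic and the third wild-type mouse (log2 fold change 0.19 ± 0.20 SE, adjusted p = 0.590). Psmb9, the counterpart of Psmb6 (chr17:34181987-34187764), had 1.91, 2.28 and 2.64 CPM in the wild-type and 1.65, 3.80 and 2.70 CPM in the transgenic mice. It overlapped too, with the highest and the lowest value both in transgenic mice (0.25 ± 0.29 SE, adjusted p = 0.623). Without the second transgenic mouse the log2 fold changes of both genes fell to just under 0, at -0.01 and -0.05. Psmb8 and Psmb9 had 77 to 229 counts per library, and the coefficient of variation over the transgenic mice was 25.2% for Psmb8 and 39.6% for Psmb9.

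Psmb10, the counterpart of Psmb7 (chr8:105935735-105938444), did separate the genotypes. It had 20.04, 19.5 and 19.3 CPM in the wild-type and 22.7, 22.4 and 21.9 CPM in the transgenic mice. The values of each genotype lay close together and did not overlap with the other, with a log2 fold change of 0.19 ± 0.05 (SE), or 13.9%, and an adjusted p of 0.0710. With offsets for GC content the log2 fold change was 0.08 (adjusted p = 0.401). Psmb10 has a GC content of 56.5%, near the upper end of the 50 genes.

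Summed levels of several marker lists were lowest in the same mice as Psmb9. The 10 microglia markers summed to 324, 345 and 456 CPM in the wild-type and to 320, 498 and 481 CPM in the transgenic mice, with 9 of 10 log2 fold changes above 0 and 0 called. The 12 MHC class I and interferon-gamma genes summed to 299, 318 and 350 CPM and to 270, 388 and 321 CPM, with 0 of 12 called. The 8 endothelial markers summed to 206, 213 and 228 CPM and to 197, 273 and 242 CPM. As in Psmb9, the second transgenic mouse was the highest and the first transgenic mouse the lowest in these 3 sums. The 8 astrocyte markers, at 5066, 5136 and 6890 CPM and at 4994, 6210 and 6121 CPM, were also lowest in the first mice of both genotypes, but highest in the third wild-type mouse. Single genes did not all follow these sums: Ifngr2, a subunit of the interferon-gamma receptor, was highest in the first transgenic mouse at 58.7 CPM. The part of these cell types in the values of Psmb8 and Psmb9 was not tested. Of this list Erap1, which trims peptides for MHC class I, had the smallest p, with 14.7, 14.4 and 16.1 CPM in the wild-type and 8.58, 13.2 and 12.2 CPM in the transgenic mice. It was thus lower in each transgenic mouse (log2 fold change -0.42 ± 0.15 SE, adjusted p = 0.128). Without the first transgenic mouse the log2 fold change was -0.25.

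Per deposited length, Psmb8 was far below Psmb5 in each mouse. The log2 ratio of Psmb8 to Psmb5 was -5.30, -5.27 and -4.72 in the wild-type and -5.42, -4.53 and -5.11 in the transgenic mice. The means were -5.10 ± 0.33 and -5.02 ± 0.45 (SD, n = 3 each), and the genotypes overlapped. The log2 ratio of Psmb9 to Psmb6 was -5.97, -5.78 and -5.51 in the wild-type and -6.39, -5.12 and -5.62 in the transgenic mice, which overlapped as well. The ratio of Psmb10 to Psmb7 was much closer to even, at -1.10, -1.09 and -1.04 in the wild-type and -0.94, -0.93 and -0.96 in the transgenic mice. Here the genotypes did not overlap, and the means of -1.08 ± 0.03 and -0.94 ± 0.01 differed by 0.13. This direction did not hold with GC offsets, with which the log2 fold change between the genotypes was 0.08 for Psmb10 and 0.20 for Psmb7. With the longest coding transcripts the wild-type means were -4.35 for Psmb8 over Psmb5, -5.55 for Psmb9 over Psmb6 and -2.26 for Psmb10 over Psmb7, so that the sizes of these ratios depend on the lengths, while the differences between genotypes do not. Psmb11, the thymus form of the chymotrypsin-like subunit, was at 0.43 to 0.90 CPM, or 16 to 42 counts, and overlapped between the genotypes.

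**Figure D4:**
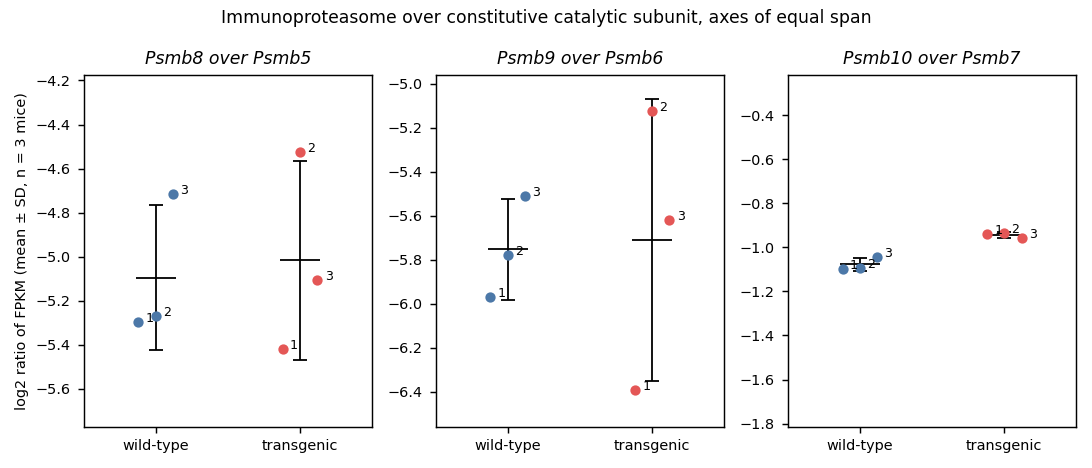
Log2 ratio of the FPKM of each immunoproteasome gene to that of its constitutive counterpart in each mouse, with the mean and SD of 3 mice and the replicate number beside each point. The axes span the same range, and the genotypes overlap for Psmb8 over Psmb5 and for Psmb9 over Psmb6, while the transgenic mice lie above the wild-type mice for Psmb10 over Psmb7.

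The 6 ATPases of the base included genes on both sides. In 4 of the 6 genes the transgenic mice lay above the wild-type mice (66.7%, against 16.9% of all genes tested), in 1 they lay below, and in 1 they overlapped. Psmc5 (chr11:106256154-106263120) had 113, 118 and 116 CPM in the wild-type and 137, 127 and 127 CPM in the transgenic mice. There was no overlap, with a log2 fold change of 0.17 ± 0.05 (SE), or 12.5%, and an adjusted p of 0.0687. The log2 fold change was 0.09 with gene length offsets (adjusted p = 0.291). Psmc4 was at 67.5, 68.6 and 65.2 CPM and at 79.3, 71.4 and 72.3 CPM (adjusted p = 0.127). Psmc1 was at 115.9, 115.0 and 118.5 CPM and at 130.5, 122.9 and 123.0 CPM (adjusted p = 0.157). Psmc3 did not overlap either, at 121.7, 121.8 and 118.4 CPM and at 137.3, 125.1 and 126.8 CPM (adjusted p = 0.210). With GC offsets the log2 fold change went from 0.11 to 0.01 for Psmc3 and from 0.15 to 0.09 for Psmc4. In Psmc2 the genotypes overlapped, with a log2 fold change of 0.05.

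Psmc6 (chr14:45329788-45349705) went the other way. It had 90.3, 84.2 and 85.7 CPM in the wild-type and 74.5, 80.4 and 77.1 CPM in the transgenic mice, with each transgenic value below each wild-type value. The first transgenic mouse, which was highest in the other 5 ATPases, was the lowest here. The log2 fold change was -0.17 ± 0.05 (SE), or -10.9%, and the adjusted p was 0.0812. Psmc6 has the lowest GC content of the 50 genes at 36.97%, and with offsets for GC content its log2 fold change turned to 0.06 (adjusted p = 0.612). Per deposited length Psmc5 was the highest ATPase in the wild-type mice at 83.0 ± 1.87 FPKM, followed by Psmc1 at 60.2 ± 0.94 FPKM and Psmc3 at 46.3 ± 0.75 FPKM. Psmc4 had 31.0 ± 0.82 FPKM, Psmc6 24.8 ± 0.92 FPKM and Psmc2 16.5 ± 0.42 FPKM, and no neighbours overlapped. The ATPases form a ring with each subunit present in equal number, and their genes spanned 5.03-fold per deposited length and 2.27-fold per longest coding transcript.

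The 3 other subunits of the base differed from each other. Psmd4, a receptor for ubiquitin chains (chr3:95032694-95042614), had the smallest p of the 50 genes. It had 77.0, 81.6 and 77.3 CPM in the wild-type and 90.2, 88.0 and 88.2 CPM in the transgenic mice. The transgenic mice lay close together and above the wild-type mice, with a log2 fold change of 0.18 ± 0.04 (SE), or 12.9%, and an adjusted p of 0.0525. The adjusted p was 0.0476 when at least 10 counts were required in every library, where 7.39% of all genes tested were called, and with GC offsets it was 0.157 at a log2 fold change of 0.11. Psmd2, a scaffold that docks substrate shuttles, was the highest of the 50 genes in CPM at 180.2 to 183.5 in the wild-type and 182.1 to 195.8 in the transgenic mice, and overlapped. Psmd1, the other large scaffold, had 122.0, 122.3 and 113.1 CPM in the wild-type and 114.6, 104.8 and 101.1 CPM in the transgenic mice. The ranges overlapped by the first transgenic and the third wild-type mouse (log2 fold change -0.16 ± 0.06 SE, adjusted p = 0.141). In the wild-type mice Psmd2 was at 45.0 ± 0.40 FPKM, Psmd4 at 28.0 ± 0.91 FPKM and Psmd1 at 16.4 ± 0.72 FPKM.

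In the lid, 8 of 8 genes had a log2 fold change above 0, with a median of 0.11, which became 5 of 8 and 0.07 with gene length offsets. Of the 8 genes, 4 had an unadjusted p under 0.05, which 13.0% of all genes tested had. The summed level was 593, 594 and 581 CPM in the wild-type and 662, 612 and 614 CPM in the transgenic mice, without overlap, and the first transgenic mouse was the highest in 8 of the 8 genes. Psmd3, a scaffold of the lid, had 107.2, 108.6 and 106.6 CPM in the wild-type and 125.3, 115.2 and 116.6 CPM in the transgenic mice (adjusted p = 0.0933). Psmd8 was at 80.0, 79.9 and 82.1 CPM and at 93.2, 87.8 and 85.9 CPM (adjusted p = 0.0986). Psmd7, the partner of the deubiquitinase, was at 86.3, 86.6 and 88.8 CPM and at 98.1, 91.0 and 93.4 CPM (adjusted p = 0.158). Psmd13 was the other gene without overlap, at 57.7 to 60.6 CPM and 62.8 to 66.0 CPM (adjusted p = 0.146). With GC offsets the log2 fold change went from 0.15 to 0.05 for Psmd3, from 0.14 to 0.08 for Psmd8 and from 0.12 to 0.05 for Psmd13. Psmd14, the deubiquitinase itself, had 71.0, 70.3 and 64.2 CPM in the wild-type and 73.0, 67.8 and 66.4 CPM in the transgenic mice, which overlapped, with a log2 fold change of 0.01. Psmd6, Psmd11 and Psmd12 overlapped too, with log2 fold changes of 0.04, 0.11 and 0.02.

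Per deposited length Psmd7 led the lid in the wild-type mice at 38.6 ± 0.61 FPKM, before Psmd8 at 26.4 ± 0.40 FPKM. Psmd14 at 24.3 ± 1.33 FPKM and Psmd12 at 24.0 ± 0.67 FPKM overlapped. Psmd6 had 22.7 ± 0.67 FPKM, Psmd3 21.6 ± 0.21 FPKM and Psmd13 17.5 ± 0.43 FPKM. Psmd11 was the lowest at 9.36 ± 0.13 FPKM.

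The 7 assembly chaperones, which help the rings form and are absent from the finished particle, had the largest median among the classes with more than 3 genes. Their log2 fold changes were above 0 in 7 of 7, with a median of 0.19, and with gene length offsets in 5 of 7, with a median of 0.15. The summed level was 120.6, 122.4 and 119.0 CPM in the wild-type and 133.8, 131.2 and 130.3 CPM in the transgenic mice, so that here the transgenic mice were close to each other. Psmd9, a chaperone of the ATPase ring (chr5:123169413-123250131), had 21.9, 23.4 and 21.5 CPM in the wild-type and 25.4, 25.5 and 25.5 CPM in the transgenic mice. These did not overlap, with a log2 fold change of 0.19 ± 0.06 (SE), or 14.4%, and an adjusted p of 0.0734. With GC offsets it was 0.16, and with gene length offsets 0.24 (adjusted p = 0.0557). Psmg1, a chaperone of the alpha ring, was at 9.02, 8.91 and 8.85 CPM and at 10.4, 10.1 and 11.1 CPM (adjusted p = 0.0940). Psmg3, of the same group, was at 5.90, 5.996 and 5.89 CPM and at 7.31, 6.68 and 6.97 CPM (adjusted p = 0.134). Psmd5 was the other one without overlap, at 51.4 to 52.4 CPM and 54.5 to 56.1 CPM (adjusted p = 0.178). Psmg2, Psmg4 and Psmd10 overlapped, with log2 fold changes of 0.06, 0.27 and 0.02. In the wild-type mice Psmg2 was the highest at 15.9 ± 0.24 FPKM and Psmd10 had 7.71 ± 0.43 FPKM. Psmd5 was at 7.18 ± 0.07 FPKM, Psmg1 at 6.64 ± 0.06 FPKM and Psmg4 at 6.36 ± 0.85 FPKM. Psmd9 at 3.07 ± 0.14 FPKM and Psmg3 at 2.05 ± 0.02 FPKM were the lowest.

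The activators, which open the core in place of the regulatory particle, had no common direction, with 3 of 5 log2 fold changes above 0. Psme2, which forms the interferon-inducible activator with Psme1, had 17.5, 18.6 and 17.8 CPM in the wild-type and 18.9, 22.7 and 21.2 CPM in the transgenic mice, without overlap (log2 fold change 0.22 ± 0.08 SE, adjusted p = 0.122). As in Psmb8 and Psmb9, the second transgenic mouse was the highest. Psme1 had 25.3, 28.1 and 26.1 CPM and 28.3, 30.2 and 27.8 CPM, which overlapped (adjusted p = 0.261). Psme3, the nuclear activator, had 89.6 to 99.5 CPM and 93.2 to 101.2 CPM, and Psme4, a large single-chain activator, 60.2 to 65.5 CPM and 56.5 to 60.8 CPM (log2 fold change -0.11 ± 0.05 SE, adjusted p = 0.205). Both overlapped. Psme2b, whose transcript is 96.2% identical to Psme2 over 837 bases, had 20 to 36 counts per library, which may include fragments of its near copy. In the wild-type mice Psme3 was at 32.3 ± 1.75 FPKM, Psme1 at 11.99 ± 0.65 FPKM, Psme2 at 10.2 ± 0.32 FPKM, Psme4 at 7.53 ± 0.32 FPKM and Psme2b at 0.79 ± 0.11 FPKM. Psmf1, a proteasome inhibitor, was at 4.46 ± 0.05 FPKM with a log2 fold change of 0.07. Psmc3ip matches the symbol rule but is a factor of meiotic recombination and no subunit. It was at 9.26 ± 0.40 FPKM with a log2 fold change of -0.04.

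GC content moved with the fold changes. Over the 50 genes the Spearman correlation of log2 fold change and GC content of the longest transcript was 0.606, and over all genes with a GC value it was 0.383. These are descriptions across genes, which share the 6 libraries. For the 25 genes of lower GC the median log2 fold change was 0.05, and an unadjusted p under 0.05 was reached by 4 of them with higher and 2 with lower values. For the 25 genes of higher GC the median was 0.15, and it was reached by 14 with higher and 0 with lower values. Of all genes tested 13.0% reached it with higher and 14.8% with lower values. With GC offsets the medians were 0.10 and 0.09, the median over the 50 genes was 0.10 and 43 of them were above 0. The proteasome genes are also short, with medians of 1818 bp and 3673 bp in their shorter and longer members, while the median gene tested had 3730 bp. With gene length offsets the median over the 50 genes was 0.06 and 32 were above 0, and with both offsets it was 0.07 with 40 above 0. The part of library preparation in the GC and length trends was not tested.

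**Figure D5:**
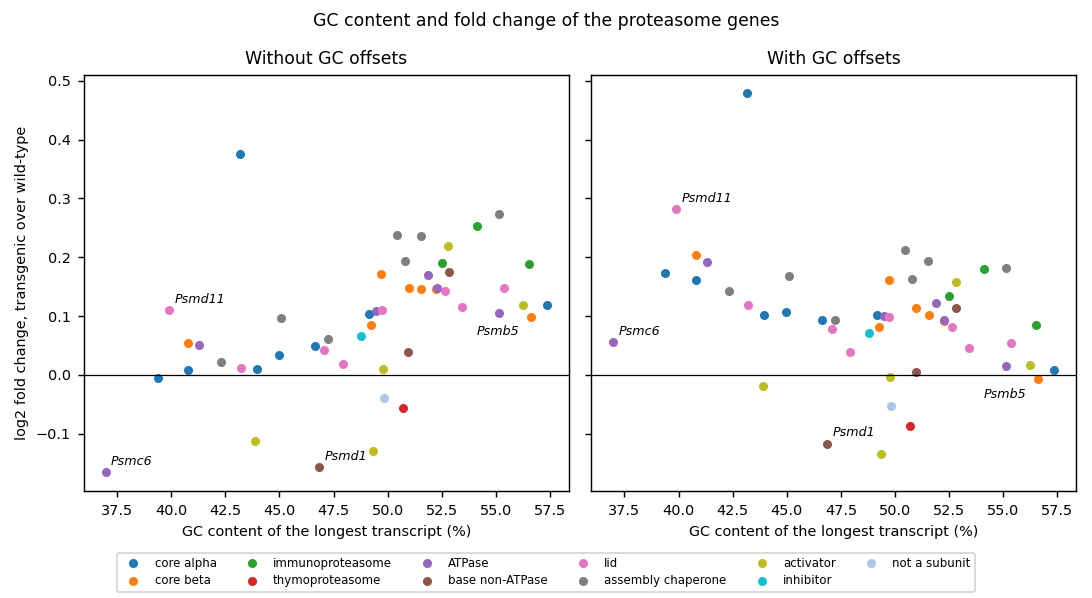
Log2 fold change of the 50 genes, transgenic over wild-type, against the GC content of their longest transcript, without and with GC offsets in the model, coloured by subunit class. Without the offsets the fold change rises with GC content from Psmc6 at 36.97%, and with them Psmc6 lies above 0 and Psmb5 at about 0.

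Most members lie apart in the genome. Of all pairs, 3 lie within 50000 bp of each other: Psmb8 and Psmb9 on chromosome 17 with 9956 bp between them, Psme1 and Psme2 on chromosome 14 with 5911 bp, and Psmb5 and Psmb11 on chromosome 14 with 3410 bp. Each of these pairs lies on opposite strands. A gene on the same strand overlapped 10 of the 50 members, the most expressed being AW209491, which shares 8943 bp with Psma2 and had a mean of 18.1 CPM over the 6 mice. Fragments shared by overlapping genes on 1 strand may have been left out of the counts. The 4 processed pseudogenes with a symbol of the family held 0 or 1 count in each library.

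Of 47 other genes of the ubiquitin-proteasome pathway, in 5 lists, 2 were called, a smaller share than the 7.10% of all genes tested. Among 13 further proteasome parts and partners, 1 was called and fell: Zfand5 (chr19:21272278-21286840), which binds ubiquitin and activates the proteasome, had 175, 171 and 171 CPM in the wild-type and 134, 153 and 150 CPM in the transgenic mice. Each transgenic value lay below each wild-type value, with a log2 fold change of -0.24 ± 0.06 (SE) and an adjusted p of 0.0469. With GC offsets its log2 fold change was -0.08 (adjusted p = 0.253). The call was also lost with limma-voom (log2 fold change -0.25, adjusted p = 0.0504) and gene length offsets (-0.21, adjusted p = 0.0672). Of the fits with 1 mouse left out, the call remained only without the first transgenic mouse. In the list of 6 ubiquitin genes and activating enzymes, 1 was called and rose: Rps27a (chr11:29545846-29548109), which encodes ubiquitin fused to a ribosomal protein, had 140, 154 and 150 CPM in the wild-type and 175, 171 and 181 CPM in the transgenic mice. The genotypes did not overlap, and the log2 fold change was 0.25 ± 0.05 (SE) with an adjusted p of 0.0357. This call too remained, of the fits with 1 mouse left out, only without the first transgenic mouse, and it was lost with gene length offsets (adjusted p = 0.0724). With 1 mouse left out the log2 fold change of Rps27a was 0.22 to 0.29. These fits called 77 to 1149 genes in all, in place of 1355.

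The remaining lists had no called gene. Among the 10 ubiquitin shuttles and unfoldase genes, Ddi2, the protease that activates Nfe2l1, had the smallest p, with 75.8, 76.0 and 74.3 CPM in the wild-type and 83.3, 79.8 and 86.9 CPM in the transgenic mice (log2 fold change 0.14 ± 0.05 SE, adjusted p = 0.0953, and 0.23 with an adjusted p of 0.0416 when gene length offsets were used). The transgenic mice lay above the wild-type mice. In the list of 6 transcription factors Mafg, a partner of Nfe2l1, had the smallest p, with means of 97.2 ± 2.42 CPM in the wild-type and 105.4 ± 6.24 CPM in the transgenic mice (SD, n = 3 each) and no overlap (log2 fold change 0.12 ± 0.05 SE, adjusted p = 0.207). Its log2 fold change was 0.07 without the first transgenic mouse and 0.03 with GC offsets. Nfe2l1 itself had 301 to 309 CPM in the wild-type and 310 to 321 CPM in the transgenic mice, with a log2 fold change of 0.04 ± 0.04 (SE) and an adjusted p of 0.554, which turned to -0.04 with GC offsets. Its groups did not overlap, and the difference was about the size of its standard error.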

How the data were processed

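Hippocampal polyA RNA was sequenced in 1 library per mouse, for 3 mice of each genotype. Per the labels and the file headers, reads were trimmed with Trimmomatic, aligned to mm10 with STAR and counted on the Ensembl 95 annotation with featureCounts 1.5.0-p1, with strand setting 2 and a mapping quality of at least 3. The authors deposited raw counts per gene, not normalized, with the exonic length. Genes were filtered with filterByExpr (minimum count 10), libraries scaled by TMM, and genotypes compared with the quasi-likelihood test of edgeR 4.0.16 in R 4.3.3, with Benjamini-Hochberg adjustment over 19087 genes and a threshold of 0.05. DESeq2 1.42.0 and limma 3.58.1, other scalings and filters, GC and length offsets (loess, span 0.5), a replicate block and each mouse left out in turn were alternatives. The combination of GC and length offsets was chosen after the data were seen. NOISeq, the test of the study, was not run. CPM and FPKM were computed here from the deposited counts. GC content came from the longest GENCODE M21 transcript, and 54809 of 54838 genes were found there. Promoters came from RefSeq. The fits were tested on simulated data.

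Named in full were genes with an adjusted p under 0.05, the catalytic subunits and, up to 6, those of the smallest p, and per pathway list the called genes or that of the smallest p. Other members are given by level or range. The members and lists were chosen with earlier results of these data known. The labels do not say how the mice were bred, so p-values measure the spread between these mice. Counts of replicates differed by more than sampling noise in each pair of libraries (chi-square over degrees of freedom 5.27 to 27.6).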

Additional observations from a re-analysis of the deposited data

How the results depend on the processing

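Over all alternatives run, the number of proteasome genes with a log2 fold change above 0 lay between 32 and 46 of 50 and their median between 0.0593 and 0.1403. The number with an adjusted p under 0.05 and higher values was 2 with DESeq2's Wald test, 1 with at least 10 counts in every library and 0 to 1 with a mouse left out, and it was 0 for lower values in each alternative. An unadjusted p under 0.05 with higher values was found in 11 genes with GC offsets and the replicate block, 5 with gene length offsets, 6 with both offsets and 10 to 19 with a mouse left out. With lower values it was found in 1 gene with DESeq2's size factors, with at least 10 counts in every library, with gene length offsets and with GC offsets and the replicate block, in 0 with GC offsets alone or with length offsets, and in 0 to 3 with a mouse left out. The share of all genes with such a p and higher values was 11.7% with gene length offsets and 9.40% with both. For lower values, and for the other alternatives named, it was not computed. Genes called in all numbered 443 with GC offsets and the replicate block, in place of 1355. With a mouse left out they numbered 77 to 1149. The median over the proteasome genes was 0.0593 with gene length offsets, 0.0679 with both offsets and 0.0818 to 0.1403 with a mouse left out.

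Of the pathway genes, 2 were called higher with DESeq2's Wald test and with at least 10 counts in every library, 0 with the replicate block and 0 to 1 with a mouse left out. With gene length offsets the count stayed at 1, but it was Ddi2 (adjusted p = 0.0416) in place of Rps27a. Lower calls were 2 with DESeq2's Wald test and with no filter, 0 with limma-voom, the replicate block, GC offsets, GC offsets with the replicate block, gene length offsets and both offsets, and 0 to 2 with a mouse left out. The log2 fold change of Psmb5 turned to -0.00791 with GC offsets, -0.00799 with the replicate block added, -0.00515 with length offsets and -0.0721 with both. That of Psmc6 turned to 0.0555 with GC offsets, 0.0540 with the replicate block added and 0.0394 with both offsets. With a mouse left out Psmb8 lay between -0.00895 and 0.341 and Psmb9 between -0.0471 and 0.521, both below 0 only without the second transgenic mouse. The causes were not tested.

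The replicate numbers of the labels were tried as a block. Same-numbered mice are different animals whose deviations correlated by 0.399, -0.357 and 0.388, so the numbers do not pair them. With the block the median over the proteasome genes was 0.10 and 0 were called, and 738 genes were called in all in place of 1355. The adjusted p was 0.0544 for Rps27a and 0.0680 for Zfand5 with the block. The highest over the lowest FPKM of the constitutive core genes was 3.14 in place of 2.72 with the longest coding transcript. Genes at 5 to 42 counts per library (Psma8, Psmb11, Psme2b) are limited by depth.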
